A study of Mus musculus with 12 samples.

Results

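The comparison asked what navitoclax changed in B16F10 melanoma tumours when it was given or not, with the second drug of the study, alisertib, as a crossed factor. Members were taken from the treatment in each sample's labels and comprised all 12 libraries, 6 from tumours given navitoclax and 6 from tumours without it. The expression table held 50600 genes, of which 16993 passed a filter on low values and were tested. The navitoclax side held 3 libraries from mice on navitoclax alone (100 mg/kg) and 3 from mice on both drugs (100 mg/kg navitoclax and 25 mg/kg alisertib). The other side held 3 vehicle libraries and 3 from mice on alisertib alone (25 mg/kg). In every group, C57Bl/6 mice (genotype labelled wild) carried tumours grown under the skin from 50000 B16F10 cells and were dosed by mouth each day for 11 days. B16F10 is 1 cell line of pigmented mouse melanoma, and the sequenced tumours also hold cells of the host. In such bulk samples, fewer cells of a type and less RNA per cell cannot be told apart.

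Navitoclax is a BH3 mimetic: it sits in the groove with which BCL-2 (gene Bcl2), BCL-xL (Bcl2l1) and BCL-w (Bcl2l2), proteins that keep cells alive, hold BH3-only proteins. Freed BH3-only proteins then activate BAX and BAK, which open the outer mitochondrial membrane, release cytochrome c and start the caspases. MCL-1 and BCL2A1 are survival proteins that navitoclax does not block, and platelets depend on BCL-xL for survival. Alisertib inhibits Aurora kinase A, which builds the mitotic spindle.

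Libraries held 26.8 M to 36.7 M reads (M, the SI prefix mega). In combination 3 (both drugs) and vehicle 2, 73.7% and 63.3% of reads fell on 2 ribosomal RNA loci, against 13.8 to 35.4% in the other 10 libraries. These 2 libraries stood apart on the first principal component, 1 on each side of the comparison, so the counts of calls were also made without them. Markers of the labelled tissue were abundant: Pmel, a structural protein of the melanosome, lay between 118314 and 203019 in all 12 libraries. Values are read counts divided by 1 size factor per library, called normalized values below, and 3 reads were worth 2.29 to 2.997 in 10 libraries, 10.9 in combination 3 and 7.35 in vehicle 2.

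No gene passed the test for navitoclax given or not. In limma, with Benjamini-Hochberg adjustment at 0.05, 0 of 16993 genes were called (0%), and the smallest adjusted p was 0.194. At an unadjusted p under 0.05 there were 669 genes (3.94%), 215 higher (1.27%) and 454 lower (2.67%) with navitoclax. edgeR called 0 genes with either scaling, whereas DESeq2 called 28, 1 higher (0.00591%) and 27 lower (0.16%). voom with library weights called 28, 1 higher (0.00588%) and 27 lower (0.159%). The tools shared 19 calls, all lower. The higher gene was Clec7a in DESeq2 and Sema6d, a semaphorin singled out here after its value was seen, in voom. Without vehicle 2 and combination 3, limma called 0.

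The precision of the comparison was moderate. The 95% interval of the log2 fold change had a median half-width of 0.47 over all genes, and for 13103 genes (77.1%) the whole interval lay inside 2-fold either way. For 12 genes it lay wholly beyond 2-fold, but the intervals are not adjusted for the number of genes tested, and none of these genes was called. In the same fit of the same libraries, alisertib given or not gave 765 calls (4.5%), 445 higher (2.62%) and 320 lower (1.88%), and 3168 genes (18.6%) at an unadjusted p under 0.05. Of the total variation among the 12 libraries, 7.19% went with navitoclax, 16.4% with alisertib, 12.3% with the interaction of the drugs and 64.1% with differences between replicates. Each drug term also takes up part of the differences between replicates, so its share does not measure a drug effect alone. Vehicle 2 and combination 3, rich in ribosomal reads, enter the interaction with the same sign.

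**Figure D1:**
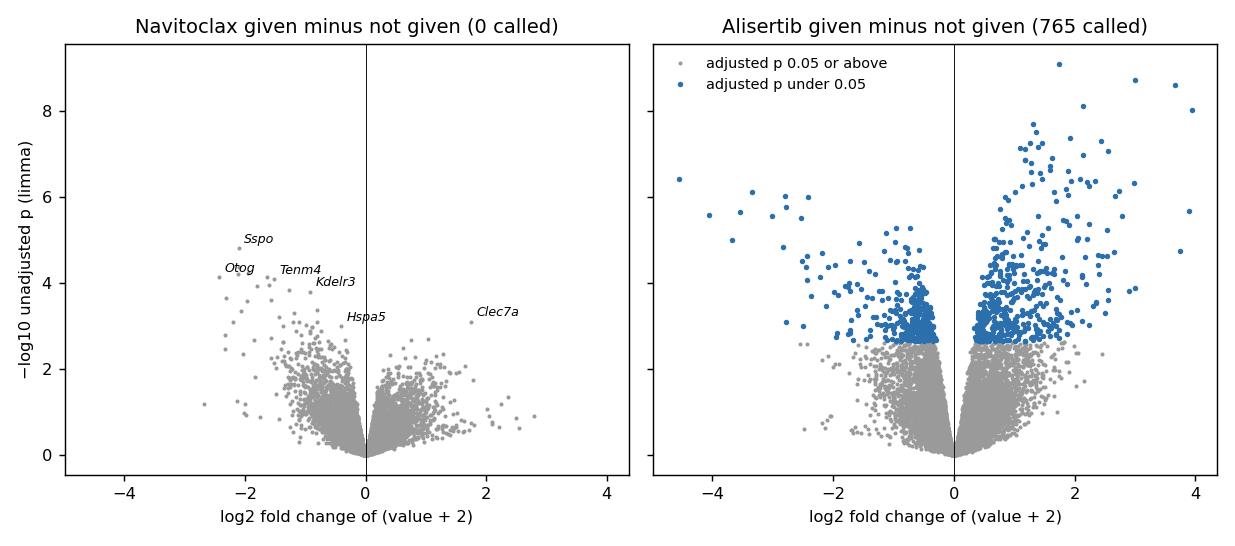
Each point is 1 of 16993 genes, with the log2 fold change of (value + 2) on the x axis and −log10 of the unadjusted p in limma on the y axis. Left, navitoclax given minus not given has no gene past an adjusted p of 0.05. Right, alisertib given minus not given has 765 (blue).

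The 24 named genes with the smallest p did not pass, with adjusted p between 0.194 and 0.805. Of these, 23 were lower with navitoclax and 1 was higher. In 18 of them the 3 vehicle libraries lay above all other 9, and in 1 below all other 9. Over all genes, the 3 vehicle libraries lay above the other 9 in 392 (2.31%) and below them in 177 (1.04%). The change was larger in the arm without alisertib (navitoclax against vehicle) than in the arm with it (both drugs against alisertib) for 21 of the 24. For alisertib given or not, which uses the same vehicle libraries, 13 of the 24 were called, and all 13 were lower (all genes 1.88%).

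Sspo, which encodes the secreted brain glycoprotein SCO-spondin (ENSMUSG00000029797.13, chr6:48448229-48501250, plus strand, GRCm38), had the smallest p. Its values were 23.2, 71.2 and 62.7 in navitoclax libraries, against 814, 1179 and 804 in vehicle libraries. They were 26.8, 22.1 and 39.8 with both drugs, against 20.4, 31.3 and 35.6 with alisertib alone. Only vehicle was high, and the other 9 libraries overlapped. The 6 against 6 log2 fold change was -2.10 ± 0.29 (SE, adjusted p = 0.194), from -4.22 ± 0.41 without alisertib (adjusted p = 0.00422) and 0.02 ± 0.41 with it (adjusted p = 0.989). The alisertib effect, from the same libraries, was -2.80 (adjusted p = 0.000374).

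Several others had this form. Otog, the inner-ear glycoprotein otogelin, had 4.13, 12.7 and 7.14 with navitoclax, against 248, 203 and 252 in vehicle, and 0 to 4.59, a few reads each, in the 6 libraries given alisertib. Tenm4, a teneurin of the cell surface, had 229, 219 and 107 with navitoclax, against 1253, 909 and 889 in vehicle. Its values were 41.6, 86.9 and 72.4 with both drugs, against 125, 77.2 and 83.3 with alisertib. In each case vehicle stood clear of navitoclax, while the 2 groups on alisertib overlapped. Abca4, a lipid transporter of the retina, and Cdsn, corneodesmosin of the skin, had log2 fold changes of -1.64 ± 0.27 and -2.20 ± 0.48 in the 6 against 6 comparison (SE).

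**Figure D2:**
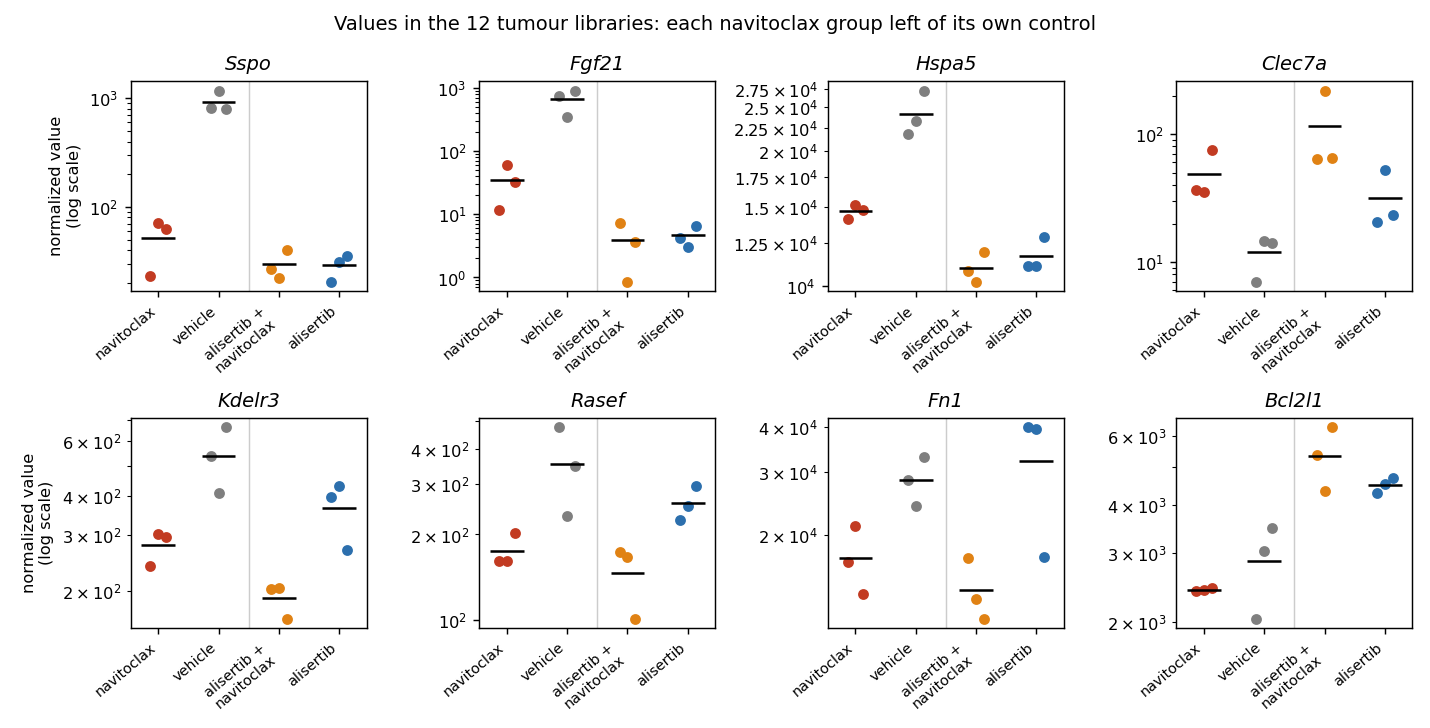
Normalized values on a log axis for 8 genes in the 12 libraries, with points for libraries and bars for the mean of 3. Each navitoclax group stands left of its own control. Sspo, Fgf21 and Hspa5 are high in vehicle alone, Kdelr3, Rasef and Fn1 are lower with navitoclax in both arms, Clec7a is higher in both, and Bcl2l1 is higher in both groups on alisertib.

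Of the 24, 21 had the same sign in both arms, 9 had an interval that excluded 0 in the arm with alisertib, and 6 had no overlap in either arm. The 24 were picked by the pooled p, which draws on both arms, so these counts are partly set by that choice. The KDEL receptor Kdelr3, which returns chaperones from the Golgi to the endoplasmic reticulum (chr15:79516411-79527739, plus strand), had 239, 303 and 298 with navitoclax, against 538, 409 and 664 in vehicle. Libraries with both drugs had 202, 204 and 163, against 398, 430 and 269 with alisertib. All navitoclax libraries were lower than their own controls, by the same log2 fold change of -0.92 ± 0.23 in either arm. The 6 against 6 value of -0.92 ± 0.16 (0.529-fold) had an adjusted p of 0.244.

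Rasef, a Rab-family GTPase (chr4:73714579-73790994, minus strand), was the 1 gene of the 24 without overlap between the sides. Its values were 161, 161 and 202 with navitoclax and 174, 166 and 101 with both drugs, against 475, 233 and 349 in vehicle and 226, 251 and 295 with alisertib. The log2 fold change was -0.89 ± 0.20 (adjusted p = 0.622). Over all genes, 8 (0.0471%) had all 6 navitoclax libraries below the other 6, and 0 genes had them all above. The remaining 7, chosen here after their values were seen, included Gipr, the receptor of the incretin hormone GIP, at 3.70 to 7.24 with navitoclax against 8.42 to 41.7 without, and Klf1, the erythroid transcription factor, at 3.62 to 10.2 against 10.7 to 29.4. Both are low genes, near the value of 3 reads in some libraries.

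Fn1, fibronectin of the extracellular matrix, had 16847, 21299 and 13721 with navitoclax, against 28585, 24145 and 33088 in vehicle. It had 17289, 13342 and 11736 with both drugs, against 39969, 39463 and 17390 with alisertib. The groups did not overlap within either arm, and only the alisertib library at 17390 fell inside the range of the navitoclax side. The log2 fold change was -0.74 ± 0.31 without alisertib and -1.11 ± 0.31 with it (-0.93 ± 0.22 pooled, adjusted p = 0.718). Fn1 was past the threshold in DESeq2 (adjusted p = 0.0197) and voom (adjusted p = 0.0416).

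Clec7a, which encodes the myeloid receptor Dectin-1, was the 1 gene of the 24 that was higher. It had 36.4, 35.6 and 74.6 with navitoclax, against 6.99, 14.7 and 14.1 in vehicle. In the other arm it had 63.8, 219 and 65.1 with both drugs, against 20.4, 52.0 and 23.4 with alisertib. All libraries were higher than their own controls, although the sides overlapped through the alisertib library at 52.0. The log2 fold change was 1.75 ± 0.38 (adjusted p = 0.606), with 1.84 in the arm without alisertib and 1.66 in the arm with it.

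Across the table, 51 genes (0.3%) had all libraries lower in both arms and 20 genes (0.118%) all higher. The arms share no library, and over the 16993 genes the correlation of their log2 fold changes was -0.26 (Pearson) and -0.39 (Spearman). Without vehicle 2 and combination 3 it was 0.10 and 0.04. Genes are not independent replicates, so these values describe the table only.

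**Figure D3:**
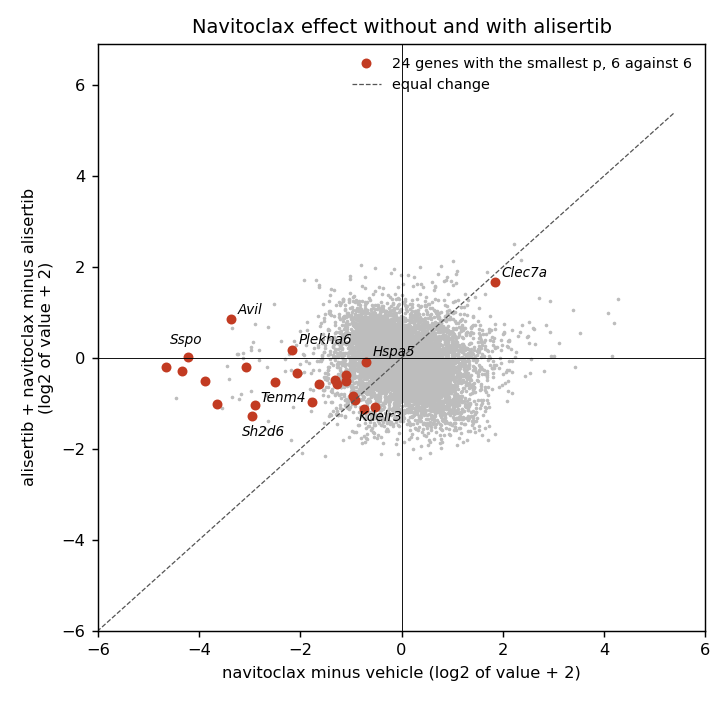
Log2 fold change of navitoclax against vehicle (x axis) and of both drugs against alisertib (y axis) for 16993 genes, with the 24 named genes in red and a dashed line at equal change. Most red points lie far left near the horizontal axis, and Kdelr3 and Clec7a lie near the dashed line.

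Across the table, all 3 navitoclax libraries lay below vehicle in 8.64% of genes and above it in 6.5%, and all 3 with both drugs lay below alisertib in 5.2% and above it in 5.08%. The test called 11 genes without alisertib (0.0647%), all lower with navitoclax, and 0 genes with alisertib (0%). At an unadjusted p under 0.05 the arm without alisertib had 1083 genes (6.37%). In the arm with alisertib, 596 genes (3.51%) had an unadjusted p under 0.05, the smallest adjusted p in limma was 0.681, and edgeR, DESeq2 and voom also called 0. Sspo, Avil, Abca4, Otog, Tenm4, Fgf21 and Plekha6 were among the 11 that fell in the arm without alisertib. The count rests on the shared estimate of spread: with only the navitoclax and vehicle libraries in the fit it was 0, and with 1 library left out it ran between 2 and 20.

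The difference between the arms had an unadjusted p under 0.05 for 1449 genes (8.53%), and for 736 without vehicle 2 and combination 3. Those 2 libraries enter this difference with the same sign. It passed for 1 gene (0.00588%), Avil, which encodes the actin-binding protein advillin (chr10:127000709-127020994, plus strand). Avil had 28.1, 44.3 and 19.0 with navitoclax, against 375, 292 and 291 in vehicle. It had 41.6, 35.8 and 61.5 with both drugs, against 25.5, 22.9 and 24.3 with alisertib. It fell by 3.37 on the log2 scale without alisertib (adjusted p = 0.00422) and was 0.84 ± 0.32 higher with it, which did not pass (adjusted p = 0.681). The difference was 4.21 ± 0.45 (adjusted p = 0.0198). Without vehicle 2 and combination 3 its adjusted p was 0.0750.

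Col20a1, a collagen, had the opposite sign in the arms without passing the test of the difference (1.29 ± 0.23, adjusted p = 0.436). It had 767, 1057 and 806 with navitoclax, against 1408, 1478 and 1499 in vehicle, and 1695, 1569 and 1990 with both drugs, against 1417, 1120 and 1090 with alisertib. Navitoclax libraries were all lower than vehicle, and libraries with both drugs were all higher than alisertib.

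None of the transcripts of the navitoclax targets was called. Bcl2l1, for BCL-xL, had 2405, 2409 and 2441 with navitoclax, against 2037, 3046 and 3492 in vehicle. Values were 5385, 4344 and 6333 with both drugs, against 4292, 4526 and 4691 with alisertib. The groups overlapped in both arms, and the log2 fold change was 0.01 with a 95% interval of -0.29 to 0.32. Bcl2 was at -0.16 (-0.43 to 0.11) and Bcl2l2, for BCL-w, at 0.18 (-0.07 to 0.42). A 2-fold change lay outside all 3 intervals. The alisertib effect on Bcl2l1 was 0.91 (adjusted p = 0.00469). Per kilobase of gene model, the mean level was 825 for Bcl2l1, 516 for Bcl2 and 293 for Bcl2l2.

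The survival genes outside the drug's reach were measured less precisely. Mcl1 had a mean level per kilobase of 2161, above Bax at 1581, over all 12 libraries, but 1374, below Bax at 1557, without vehicle 2 and combination 3. It had 4045, 3835 and 4779 with navitoclax, against 4230, 15356 and 3947 in vehicle, and 6020, 5086 and 26328 with both drugs, against 4052, 4396 and 6563 with alisertib. Vehicle 2 and combination 3, which had most ribosomal reads, gave the 2 high values, and the part of that in the result was not tested. The log2 fold change was 0.17 (-0.79 to 1.12), and between -0.21 and 0.48 with 1 library left out. Bcl2a1d, with 0 to 29.4 in all libraries, was at 0.04, and its reads cannot be separated from near-identical Bcl2a1 copies.

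Effector and BH3-only genes also gave 0 calls, with 0 at an unadjusted p under 0.05. Of each list below, limma, edgeR, DESeq2 and voom called at most 1 member in the 6 against 6 comparison. These were the ATF4 target Fgf21 and the chaperone gene Hspa5 in DESeq2, and the immediate early gene Klf4 in voom. The keratinocyte gene Cdsn was called in both DESeq2 and voom. The pore formers Bax and Bak1 had log2 fold changes of -0.05 (-0.30 to 0.20) and 0.09 (-0.13 to 0.30), and Bok, a related effector, -0.28 (-1.11 to 0.55). Among BH3-only genes, 3 of 7 tested were positive, with a median of -0.01. Bid, which links death receptors to mitochondria, was at 0.27 (-0.03 to 0.58), and Bcl2l11, for BIM, at -0.01 (-0.45 to 0.44). Bbc3, for the p53-induced protein PUMA, had 262, 322 and 331 with navitoclax, against 426, 733 and 390 in vehicle, and 920, 794 and 1864 with both drugs, against 748, 668 and 776 with alisertib. Navitoclax libraries were lower than vehicle and libraries with both drugs were higher than alisertib, and the difference of the arms, 1.31 ± 0.44, had an adjusted p of 0.436. The highest values of 2 groups, 733 and 1864, came from vehicle 2 and combination 3, which had most ribosomal reads. The part of that in the difference was not tested. Among the 18 genes of the apoptosome, caspases and their inhibitors, 11 were positive with a median of 0.04, and among 10 of the death receptor pathway, 8 were positive with a median of 0.13. Of these 10, 0 were called and 1 had an unadjusted p under 0.05. It was Tnf, at 1.38 (0.38 to 2.38), a low gene with values of 0 to 35.7. Over all genes tested the median was 0.00, with 8678 of 16993 positive.

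**Figure D4:**
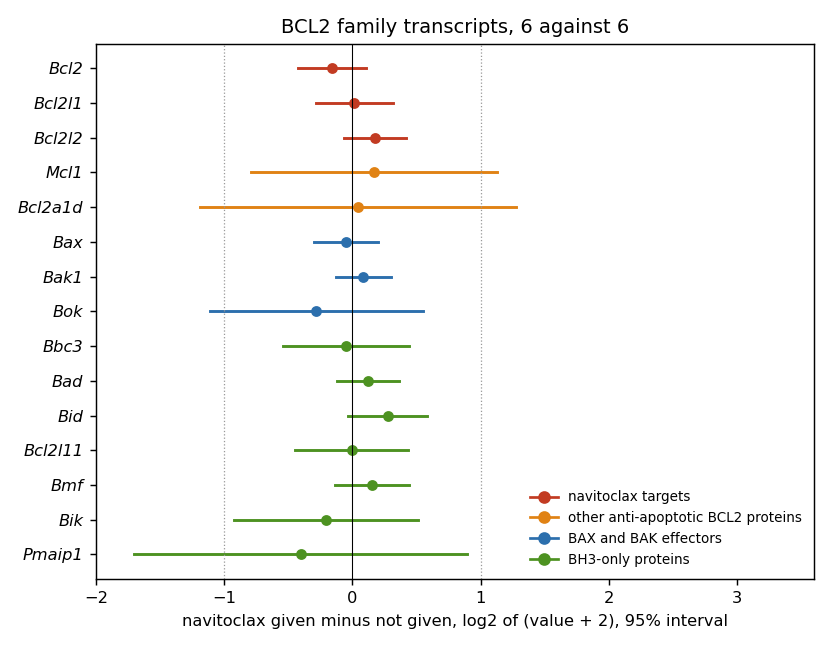
Log2 fold change of (value + 2), navitoclax given minus not given (x axis), with 95% intervals for 15 BCL2 family genes by role. Every interval includes 0, and dotted lines mark 2-fold either way. Mcl1, Bcl2a1d and Pmaip1 have the widest intervals of the survival and BH3-only genes.

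The clearest leaning among stress genes was downward. Genes of the ATF4 and amino acid response, which cells switch on when translation is restrained by stress kinases, were lower in 28 of 32 with 0 called and a median log2 fold change of -0.24 (all genes 0.00). The median was -0.37 without alisertib and -0.13 with it, and 9 members had an unadjusted p under 0.05. For alisertib given or not the list's median was -0.76, with 19 members called lower and 1 higher (all genes 1.88% lower and 2.62% higher). Without navitoclax 1 the pooled median was -0.11 and that of the arm without alisertib -0.13, and without navitoclax 2 they were -0.33 and -0.59. Summed over the list, values were 68028, 109997 and 81245 with navitoclax, against 99101, 101347 and 104203 in vehicle. With both drugs they were 64220, 62381 and 62354, against 66131, 62342 and 65980 with alisertib. Navitoclax 1 and navitoclax 3 lay below all vehicle libraries and navitoclax 2 above them, and the 2 groups on alisertib overlapped.

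Fgf21, a stress hormone and ATF4 target (ENSMUSG00000030827.5, chr7:45613886-45615490, minus strand), had 11.6, 60.1 and 32.5 with navitoclax, against 745, 350 and 909 in vehicle. It had 7.40, 0.852 and 3.62 with both drugs, against 4.26, 3.06 and 6.55 with alisertib, which is close to or under the value of 3 reads, so no fold is given there. It fell by 4.34 on the log2 scale without alisertib (SE 0.61, adjusted p = 0.0334), and the 6 against 6 value of -2.31 ± 0.43 did not pass (adjusted p = 0.306). Trib3, a pseudokinase that restrains ATF4, had 269, 1803 and 665 with navitoclax, against 2115, 2703 and 2135 in vehicle. With both drugs it had 254, 177 and 203, against 371, 404 and 270 with alisertib. The groups did not overlap within either arm, and the pooled log2 fold change of -1.23 ± 0.36 did not pass. The alisertib effect on Trib3 was -2.22 (adjusted p = 0.00666 in limma). Nupr1, a stress-induced chromatin protein, and Ppp1r15a, the phosphatase subunit that ends the response, were at -1.07 ± 0.29 and -0.71 ± 0.21 (adjusted p = 0.954 and 0.988).

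Among 20 chaperone and folding genes of the endoplasmic reticulum, 17 were lower, with a median of -0.16, 0 calls and 2 at an unadjusted p under 0.05. Without alisertib the median was -0.23, and with it 0.02, or -0.06 without vehicle 2 and combination 3. For alisertib given or not the list's median was -0.37, with 5 members called lower and 0 higher (all genes 1.88% lower and 2.62% higher). Hspa5, the chaperone BiP (ENSMUSG00000026864.13, chr2:34771970-34777547, plus strand), had 14121, 15130 and 14759 with navitoclax, against 21780, 23324 and 27222 in vehicle. Libraries with both drugs had 10797, 10226 and 11942, against 11066, 11114 and 12875 with alisertib. Vehicle stood above every other library, navitoclax alone came next, and the 2 groups on alisertib overlapped. The 6 against 6 log2 fold change was -0.40 ± 0.09 (0.758-fold, adjusted p = 0.622). DESeq2 gave an adjusted p of 0.00548 and voom 0.0876.

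The sequence before the RefSeq start site of these 3 stress-linked genes is shown because each holds a published stress element, from RefSeq on GRCm38.p6, written 5′ to 3′ on the strand of the gene. Capitals mark the element: in Fgf21 (chr7:45615491-45615740, minus strand) a match to the C/EBP-ATF response element TGATGNAAT read on the opposite strand, in Hspa5 (chr2:34772020-34772048, plus strand) the endoplasmic reticulum stress element (CCAAT, 9 bases of any kind, then CCACG), and in Kdelr3 (chr15:79516158-79516407, plus strand) the unfolded protein response element TGACGTGG on the opposite strand.
Fgf21: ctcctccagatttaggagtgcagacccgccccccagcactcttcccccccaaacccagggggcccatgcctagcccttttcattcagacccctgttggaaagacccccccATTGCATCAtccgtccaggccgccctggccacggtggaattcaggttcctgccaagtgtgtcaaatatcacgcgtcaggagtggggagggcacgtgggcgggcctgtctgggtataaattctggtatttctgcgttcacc
Hspa5: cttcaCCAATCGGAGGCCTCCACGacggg
Kdelr3: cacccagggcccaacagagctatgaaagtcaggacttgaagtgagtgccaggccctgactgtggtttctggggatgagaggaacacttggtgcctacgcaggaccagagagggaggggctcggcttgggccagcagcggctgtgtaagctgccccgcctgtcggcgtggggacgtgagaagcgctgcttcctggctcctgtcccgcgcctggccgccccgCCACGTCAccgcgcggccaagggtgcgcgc
For Fgf21 and Kdelr3 the 250 upstream bases are given. For Hspa5 only the element with 5 bases on each side is given. RefSeq starts the gene at 34772090 and GENCODE at 34771970, so 120 of the 250 bases, the element included, lie inside the GENCODE gene. Both strands of 32851 promoter windows of 300 bases were searched. The first element was found in 0.965% of them, the second in 0.119% and the third in 0.676%. Of the 24 genes, 20 had a window, and matches were found in 1 (Fgf21), 1 (Hspa5) and 2 (Kdelr3 and Isg20). A match describes the sequence and does not show binding.

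Hypoxia genes were lower in all 20 members tested, with a median of -0.29, 0 calls and 7 with an unadjusted p under 0.05. This list leaned the same way in both arms, with medians of -0.21 without alisertib and -0.38 with it. With any 1 library left out the pooled median stayed between -0.39 and -0.20, and without vehicle 2 and combination 3 it was -0.30. Car9, the carbonic anhydrase of hypoxic tumour cells, had 6107, 5752 and 8330 with navitoclax, against 11432, 10561 and 11203 in vehicle. In the other arm it had 7219, 2803 and 4234 with both drugs, against 11493, 9519 and 4737 with alisertib. Navitoclax stood below vehicle without overlap, while the alisertib library at 4737 lay inside the range of both drugs. Its log2 fold change was -0.80 ± 0.26. Ndrg1, a stress-induced gene of hypoxic tissue, Slc2a1, a glucose transporter, and Vegfa, the vascular growth factor, were at -0.69 ± 0.20, -0.60 ± 0.21 and -0.57 ± 0.20 (lowest adjusted p 0.988).

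Immediate early genes, the transcription factors induced within minutes of a stimulus, were lower in 18 of 20 with a median of -0.22, 0 calls and 8 with an unadjusted p under 0.05. In the arms, the median was -0.40 without alisertib, with 3 of 20 positive, and -0.11 with it, with 8 of 20 positive. The pooled median was -0.35 without combination 3 and -0.17 without navitoclax 1. The AP-1 subunit Fosl1 had 11.6, 11.9 and 13.5 with navitoclax, against 32.0, 78.4 and 41.5 in vehicle. With both drugs it had 28.7, 20.4 and 28.9, against 28.9, 51.2 and 23.4 with alisertib. The first pair did not overlap and the second did, and the pooled value was -1.05 ± 0.27 (adjusted p = 0.866). Klf6, a zinc-finger factor, had 2017, 2402 and 2379 with navitoclax, against 2789, 3038 and 3336 in vehicle, and 2771, 2318 and 2606 with both drugs, against 3062, 2789 and 2618 with alisertib. Its log2 fold change was -0.29 ± 0.09. Klf4 was at -0.80 ± 0.26 and Atf3, which also belongs to the ATF4 list, at -0.80 ± 0.26.

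The p53 and cell cycle lists gave few differences for navitoclax. Of 20 p53 targets, 0 were called for navitoclax, 0 had an unadjusted p under 0.05 and 11 were positive with a median of 0.03, whereas 17 were called higher for alisertib with a median of 1.23. The exonuclease gene Aen, for example, was at 0.15 (-0.06 to 0.36) for navitoclax and 0.90 for alisertib (adjusted p = 0.000439). Mitosis genes had 0 calls, 0 at an unadjusted p under 0.05 and a median of 0.04, from 0.31 without alisertib and -0.18 with it, or 0.20 and -0.08 without vehicle 2 and combination 3. The pooled median was -0.04 without combination 2 and 0.13 without combination 3. The mitotic kinase Plk1 had 1788, 1725 and 1491 with navitoclax, against 1314, 980 and 1262 in vehicle, and 907, 1343 and 847 with both drugs, against 1215, 986 and 1070 with alisertib. Navitoclax alone was above vehicle without overlap, the second pair overlapped, and the difference of the arms was -0.60 ± 0.27 (adjusted p = 0.436). All 20 DNA replication genes were positive, at a median of 0.13, with 0 called and 0 at an unadjusted p under 0.05. In the arms, 16 of 20 were positive without alisertib (median 0.23) and 11 of 20 with it (median 0.06), and the pooled median was 0.07 without combination 2 and 0.22 without combination 1. Mcm5, a subunit of the replicative helicase, was at 0.19 (-0.03 to 0.41).

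**Figure D5:**
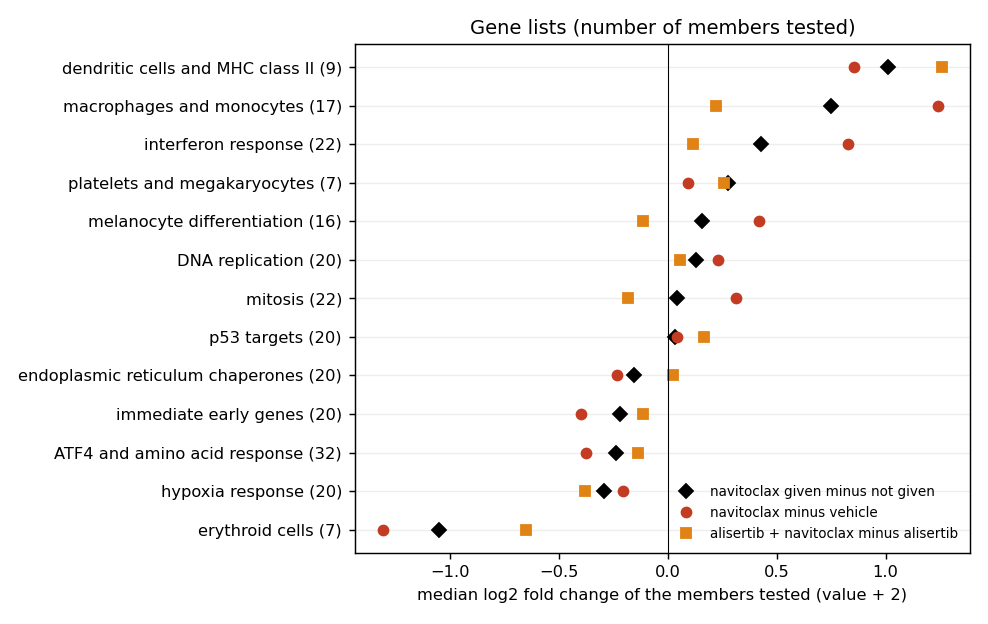
Median log2 fold change of (value + 2) over the tested members of 13 gene lists (x axis, number of members in brackets) for navitoclax given or not (black) and for its arms without (red) and with alisertib (orange). Hypoxia, ATF4, immediate early and erythroid lists lie left of 0 in all 3. MHC class II, macrophage, interferon, DNA replication, p53 and platelet lists lie right of 0 in all 3. None of the members was called by limma in the 6 against 6 comparison. Each list on the right has a median below 0 in some fit with 1 library left out. Leaving out navitoclax 3 puts the MHC class II median without alisertib at -0.29, and leaving out alisertib 1 puts the macrophage median with alisertib at -0.03.

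Several immune lists leaned upward but varied from library to library, and others did not lean so. NF-kB and inflammatory genes were positive in 9 of 19 (median -0.07, 0.36 without alisertib and -0.33 with it, 0 called and 0 at an unadjusted p under 0.05), and of 12 neutrophil genes 2 passed the filter, 1 of them positive. All 22 interferon response genes were positive (median 0.43) with 0 called and 0 at an unadjusted p under 0.05. With alisertib, 12 of 22 were positive at a median of 0.12. The pooled median was 0.70 in edgeR and DESeq2 and 0.80 in voom. Igtp, an interferon-induced GTPase, had 145, 41.1 and 1206 with navitoclax, against 47.9, 80.9 and 137 in vehicle. With both drugs it had 260, 710 and 61.5, against 68.9, 171 and 50.5 with alisertib. High values came from navitoclax 3 and combination 2 and the groups overlapped. Without navitoclax 3 the list's median was 0.14 and without navitoclax 2 it was 0.82, and in the arm without alisertib it was 0.02 without navitoclax 3 and 0.83 with all libraries.

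Of 9 dendritic cell and MHC class II genes tested, 9 were positive with 0 called, 1 at an unadjusted p under 0.05 and a median of 1.01. The median was 0.86 without alisertib, or -0.29 when navitoclax 3 was left out, and 1.26 with alisertib, or 0.71 when combination 2 was left out. Their summed values were 2445, 760 and 8649 with navitoclax, against 970, 2284 and 1700 in vehicle, and 1562, 9115 and 2982 with both drugs, against 998, 2202 and 1226 with alisertib. The same 2 libraries were highest, navitoclax 2 was the lowest of all 12, and without navitoclax 3 the pooled median was 0.50. Itgax, an integrin of dendritic cells and macrophages, was at 1.29 ± 0.36 (adjusted p = 0.980).

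Macrophage and monocyte genes were positive in 15 of 17 with a median of 0.75, 0 calls and 3 at an unadjusted p under 0.05. The median was 1.24 without alisertib and 0.22 with it (10 of 17 positive), or 0.02 with it in voom. The pooled median was 0.52 without navitoclax 3 and 1.03 without navitoclax 2. For alisertib given or not the list's median was 1.29, with 4 members called higher and 0 lower (all genes 2.62% higher and 1.88% lower). Lysozyme, Lyz2, had 1913, 1897 and 1842 with navitoclax, against 397, 875 and 793 in vehicle. With both drugs it had 3213, 5000 and 4368, against 1734, 4810 and 2709 with alisertib. Navitoclax alone stood clear above vehicle, the second pair overlapped, and the log2 fold change was 1.04 ± 0.26 (adjusted p = 0.866), with 1.53 without alisertib and 0.54 with it. The lysosomal protease Ctss was at 1.23 ± 0.39 and the complement subunit C1qb at 0.89 ± 0.43. Summed macrophage values ranged over 3961, 9604 and 19361 (lowest, median, highest) with navitoclax and 1729, 5269 and 15117 without. Clec7a, above, is expressed in these cells, and its highest value, 219, was in combination 2, whose macrophage sum was 18230. The highest macrophage sum, 19361, was in combination 3, where Clec7a was 65.1. The part of macrophage content in its result was not tested.

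Other tissue markers were also uneven between libraries. Melanocyte differentiation genes were positive in 14 of 16, with 0 called, 3 at an unadjusted p under 0.05 and a median of 0.16, 0.42 without alisertib and -0.11 with it, or 0.13 with it when vehicle 2 and combination 3 were left out. The pooled median was 0.04 without vehicle 2 and 0.32 without combination 3. The channel gene Trpm1 had 13582, 7699 and 19016 with navitoclax, against 6056, 6606 and 5445 in vehicle, and 14197, 14663 and 10292 with both drugs, against 10248, 11410 and 10730 with alisertib. The first pair did not overlap and the second did (0.66 ± 0.19 pooled, adjusted p = 0.988). Of 15 platelet and megakaryocyte genes, 7 passed the filter, 5 of these were positive with a median of 0.27, and 0 were called or had an unadjusted p under 0.05. That median was 0.05 without navitoclax 1, 0.43 without navitoclax 3, 0.14 without both vehicle 2 and combination 3 and 0.12 in voom. Itga2b, the platelet integrin, was at 0.33 (-0.26 to 0.91).

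Erythroid genes were lower in 7 of 7 tested with a median of -1.05, 0 calls and 1 at an unadjusted p under 0.05. Their summed values were 12448, 1948 and 4477 with navitoclax, against 4328, 35534 and 14945 in vehicle, and 971, 2490 and 1712 with both drugs, against 1895, 6003 and 1411 with alisertib. The groups overlapped in both arms. The erythroid median was -1.31 without alisertib and -0.65 with it, or -0.07 with it when alisertib 2 was left out. Pooled, it was -0.73 without vehicle 2, -1.45 without vehicle 1 and -0.70 without both vehicle 2 and combination 3. For alisertib given or not the erythroid median was -1.97, with 0 called. Skeletal muscle genes summed to 188472 in navitoclax 1, against 510 to 2504 in the other 11 libraries. The list's median of 1.63, with 0 called and 0 at an unadjusted p under 0.05, was 0.35 without navitoclax 1.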

How the data were processed

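Each deposited value is a signal per gene: counts that the authors divided by 1 size factor per library. In every column 100% of values fell on whole multiples of a single step (tolerance 0.001), which gave back the reads. Per the submitters' processing notes, the tools were DESeq2, featureCounts, HISAT2 2.0.6 and Subread 1.5.1 and the builds GRCm38.p4 and mm10. The strand setting is not given in the sources used here, so antisense genes, pseudogenes and overlapping protocadherin gamma genes are uncertain. Positions are from GENCODE M21 (50376 of 50600 identifiers matched).

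limma 3.58.1 (R 4.3.3) was run on log2(value + 2), with 1 mean per group and trended, robust variance moderation. Genes needed 3 or more libraries with a value of 10 or higher. Fold changes are differences on that scale, which understates low genes. edgeR 4.0.16, DESeq2 1.42.0 and voom on the recovered reads, other filters, pseudocounts, scalings and models, and each library left out were alternatives. Fits were tested on simulated data.

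Named genes are the 24 with the smallest p for navitoclax given or not (mean value of at least 20, with a gene name), the 5 smallest in each arm and for the difference, and up to 4 members per list. Members and lists were chosen with earlier results of these data known. Summed values of a list cover all its measured genes, tested or not. Replicates were numbered in accession order. Because no label states separate mice, the p-values reflect spread among these libraries alone, possibly technical. The column of navitoclax 3 was matched by its library code, as a part of its name differs from the title.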

Additional observations from a re-analysis of the deposited data

Results flagged for a closer look

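Avil was the 1 gene that limma called for a difference in the response to navitoclax between tumours with and without alisertib. DESeq2 called 10 genes for this difference and voom 3. In Avil the log2 fold change with alisertib minus that without it was 4.21 ± 0.45 (SE, adjusted p = 0.0198 in limma, over 16993 genes). The means were 46.3 ± 13.5 with both drugs and 24.3 ± 1.30 with alisertib, and 30.5 ± 12.8 with navitoclax and 319 ± 48.0 in vehicle (SD, n = 3 each). With 1 library left out the difference lay between 3.94 and 4.51, but its adjusted p was above 0.05 without vehicle 1 (0.133), vehicle 2 (0.0703), vehicle 3 (0.0984), combination 1 (0.0923), navitoclax 1 (0.0597), alisertib 1 (0.108), alisertib 2 (0.117) or alisertib 3 (0.112).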

How the results depend on the processing

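For navitoclax given or not (0 genes called), DESeq2 called 28, voom 28, a pseudocount of 8 gave 1 and the ribosomal share as a covariate 3. The other settings gave 0, as did every fit with 1 library left out (0 to 0). Without alisertib (11 genes), DESeq2 called 87, voom 38, a CPM filter 4, a pseudocount of 0.5 3, a pseudocount of 8 21, the covariate 20, only the compared groups 0, and fits with 1 library left out 2 to 20. With alisertib, 0 were called under every setting. For the difference (1 gene), DESeq2 called 10, voom 3, a pseudocount of 8 3, the fit without vehicle 2 and combination 3 0, and fits with 1 library left out 0 to 1. For alisertib given or not (765 genes), DESeq2 called 1708, voom 3031, the covariate 3310, the fit without those 2 libraries 1494, and fits with 1 library left out 314 to 763. The cause was not tested. Of 2515 values for 97 genes, 2436 kept their sign and their side of the threshold, 42 newly passed and 37 changed sign. Sign changes were Bcl2l11 (edgeR TMM 0.0115 and RLE 0.0079, DESeq2 0.0116, covariate 0.0076) and 0.0229 without the 2 libraries, Bcl2l1 at -0.0186 without them, Bax at 0.0769 (voom), Bcl2a1d at -0.15 (pseudocount 0.5), Ppbp at -0.29 (voom), and Pmaip1 at 0.13 (TMM), 0.12 (RLE), 0.0415 (DESeq2), 0.0617 (voom) and 0.25 (without the 2 libraries). With 1 library left out, the ranges were -0.13 to 0.15 for Bcl2l11, -0.10 to 0.10 for Bcl2l1, -0.21 to 0.48 for Mcl1, -0.24 to 0.0897 for Bbc3, -0.12 to 0.0285 for Bax, -0.30 to 0.42 for Bcl2a1d and -0.76 to 0.0522 for Pmaip1. List medians under other settings were chosen after seeing the data. No paired analysis was possible because the labels number no replicates. Depth limits low genes most in vehicle 2 and combination 3.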

Other observations

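Keratinocyte genes were lower in 3 of 3 tested of 13 (median -0.37), with 0 called by limma and 1 at an unadjusted p under 0.05. The 1 was Cdsn, which DESeq2 and voom called. Summed values of all 13 were 127, 248 and 173 with navitoclax, against 1522, 855 and 2095 in vehicle. With both drugs they were 94.3, 93.7 and 333, against 122, 129.9 and 88.9 with alisertib. Vehicle stood above the other 9 libraries, as it did for Cdsn alone. Cdsn had a mean of 388 over the 12 libraries and made up most of the sum, which says little on the other members. Several other cell type and pathway lists had 0 members called by limma, edgeR, DESeq2 or voom for navitoclax given or not. In limma, 1 endothelial gene, 1 NK gene, 1 pericyte and smooth muscle gene and 1 NRF2 target had an unadjusted p under 0.05. Fibroblast genes were positive in 10 of 12 (median log2 fold change 0.32, 0.52 without alisertib and -0.31 with it), and their summed values ranged over 8479, 33958 and 176893 (lowest, median, highest) with navitoclax and 8438, 26688 and 114992 without. Adipocyte genes were lower in 8 of 11 (median -1.22) and endothelial genes in 9 of 14 (median -0.08). Cholesterol synthesis genes were positive in 17 of 21 at a median of 0.06. Few lymphoid genes passed the filter: 2 of 14 for T cells, 3 of 12 for B and plasma cells and 1 of 11 for NK and cytotoxic cells.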
